A study of Mus musculus with 40 samples.

Results

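Collagens are the main structural proteins of the extracellular matrix. The 44 genes described here are all the protein-coding genes of the mouse genome (GRCm38) whose symbol is Col, a number, a, and a second number. They were picked by symbol alone from the 43629 genes of the count table. By the kind of assembly that their proteins form, 11 are fibril-forming, 8 belong to basement membranes, 6 form beaded filaments (type VI), 9 are fibril-associated collagens with interrupted triple helices (FACIT) and 3 form hexagonal networks (types VIII and X). A further 4 span the cell membrane, 1 forms anchoring fibrils (Col7a1) and 2 fit none of these classes (Col26a1 and Col28a1).

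The counts come from the amygdala, a group of nuclei in the temporal lobe that process emotional and social stimuli, of Swiss Webster mice aged 10 weeks. There were 3 colonisation states: mice with a conventional microbiota (CON), mice without microbes (GF), and GF mice that received a microbiota when they were weaned (exGF). In each state some mice were naïve, and others (SI) were taken 1 hr after social interaction in a three-chamber box. Of the 40 libraries, 12 are naïve, 4 from each state, and 28 are SI: 12 from GF and 8 from each of the other states. The naïve libraries (P in their names) hold pooled RNA, of 2 animals each by the methods and of 2 to 3 by the design text, whereas every SI library (S) stands for a single mouse. A comparison of SI with naïve mice therefore also sets single animals against pools. Which animals shared a litter is not given in the sources used here, and the spread between libraries is the error used below.

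Library totals ran from 7291810 to 19961958 counts. All amygdala markers that were listed had counts in each of the 6 groups. The rRNA-overlapping gene Gm42418 took more than 5% of the counts in the CON pools P1 and P3, the exGF pools P1 and P2, and the library exGF-S7. Markers of neighbouring tissue differed between libraries. Summed over 12 markers of the meninges (11 of them matched), levels ran from 183 CPM in CON-S3 to 1979 CPM in CON-S12, which are both CON-SI libraries. Summed over 10 markers of the choroid plexus and ependyma, 5 libraries (exGF-S4, exGF-S7, exGF-S9, GF-S8 and GF-S12) were at 808 to 1490 CPM and the other 35 at 25.0 to 308 CPM. CPM are counts scaled to a common library size.

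A collagen is wound from alpha chains that carry a repeating glycine motif, and the chains of one collagen may come from different genes. In the brain, collagens are sparse in the tissue itself. They are found in the basement membranes of blood vessels, in which type IV collagen forms the network, and in the meninges and vessel walls, whose fibroblasts make fibril-forming collagens. Some neurons make transmembrane and fibril-associated collagens, of which type XIX and type XXV are known for roles at synapses and in motor axons. The repeat is visible in the genes. Of the coding exons of the 11 fibril-forming genes, 74.6% to 88.5% had a length that is a multiple of 9 bases, the length that codes for a whole glycine repeat, and each gene had between 21 and 33 exons of exactly 54 bases. In the 8 basement membrane genes the share was 27.5% to 55.6%, with 1 to 3 exons of 54 bases, and the 3 hexagonal network genes had only 2 coding exons each.

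Col4a1 and Col4a2, which encode the common chains of type IV collagen, lie head to head on chromosome 8. Their annotated start sites are 21 bases apart, at 11312826 on the minus strand and at 11312805 on the plus strand, so that their first exons overlap by 22 bases. Both genes had a stable difference after SI, described below, and their promoter sequences are therefore shown. These run from 250 bases before to 50 bases after each start (RefSeq, GRCm38.p6). They are Col4a1 at chr8:11312777-11313076, minus strand, and Col4a2 at chr8:11312555-11312854, plus strand, each written 5′ to 3′. Capitals mark the GC box GGGCGG and the CCAAT box on either strand.
Col4a1: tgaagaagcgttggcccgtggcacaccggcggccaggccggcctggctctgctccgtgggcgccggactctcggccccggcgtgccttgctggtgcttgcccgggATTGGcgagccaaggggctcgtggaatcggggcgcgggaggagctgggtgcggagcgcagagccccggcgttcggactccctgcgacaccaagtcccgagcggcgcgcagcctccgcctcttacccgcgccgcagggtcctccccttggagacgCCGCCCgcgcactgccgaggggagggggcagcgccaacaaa
Col4a2: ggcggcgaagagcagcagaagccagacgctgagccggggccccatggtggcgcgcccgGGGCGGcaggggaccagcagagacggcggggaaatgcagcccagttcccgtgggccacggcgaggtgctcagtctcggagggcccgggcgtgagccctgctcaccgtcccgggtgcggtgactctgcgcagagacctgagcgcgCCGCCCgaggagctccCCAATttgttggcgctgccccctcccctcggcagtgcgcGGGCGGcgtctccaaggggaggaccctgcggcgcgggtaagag

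Both windows are rich in G and C (74.0% and 73.7%). They share 78 bases, read from opposite strands, and the GC box in that stretch is common to both. The Col4a1 window holds 1 GC box and 1 CCAAT box, and the Col4a2 window 3 GC boxes and 1 CCAAT box. The TATA box letters TATAAA are in neither. Of 32851 promoter windows of this length, 35.7% hold the GC box letters, 37.4% the CCAAT letters and 13.6% the TATA letters. Promoter windows were at hand for 35 of the 44 collagen genes, and 22, 13 and 5 of these genes hold the 3 motifs. These matches describe the letters only.

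Taken per kilobase of exons, so that genes can be compared, the highest mean levels over the 40 libraries were those of Col4a2 (8.25 CPM per kb), Col25a1 (7.06), Col4a1 (6.11), Col6a1 (5.63), Col19a1 (4.79), Col9a2 (4.48) and Col23a1 (4.32). The most abundant fibril-forming gene, Col1a2, followed at 2.71 CPM per kb. At the other end, Col17a1 and Col2a1, the collagens of hemidesmosomes and of cartilage, were at 0.028 and 0.029 CPM per kb. They had no more than 7 and 11 counts in any library, and they passed the filter on low counts in none of the comparisons. Of the 44 genes, 36 had a mean of at least 1 CPM. All 44 together took 375 to 734 CPM of a library, with both extremes in CON-SI. Group medians of that sum lay between 464 CPM in exGF and 519 CPM for GF-SI, less than the spread within any SI group.

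**Figure D1:**
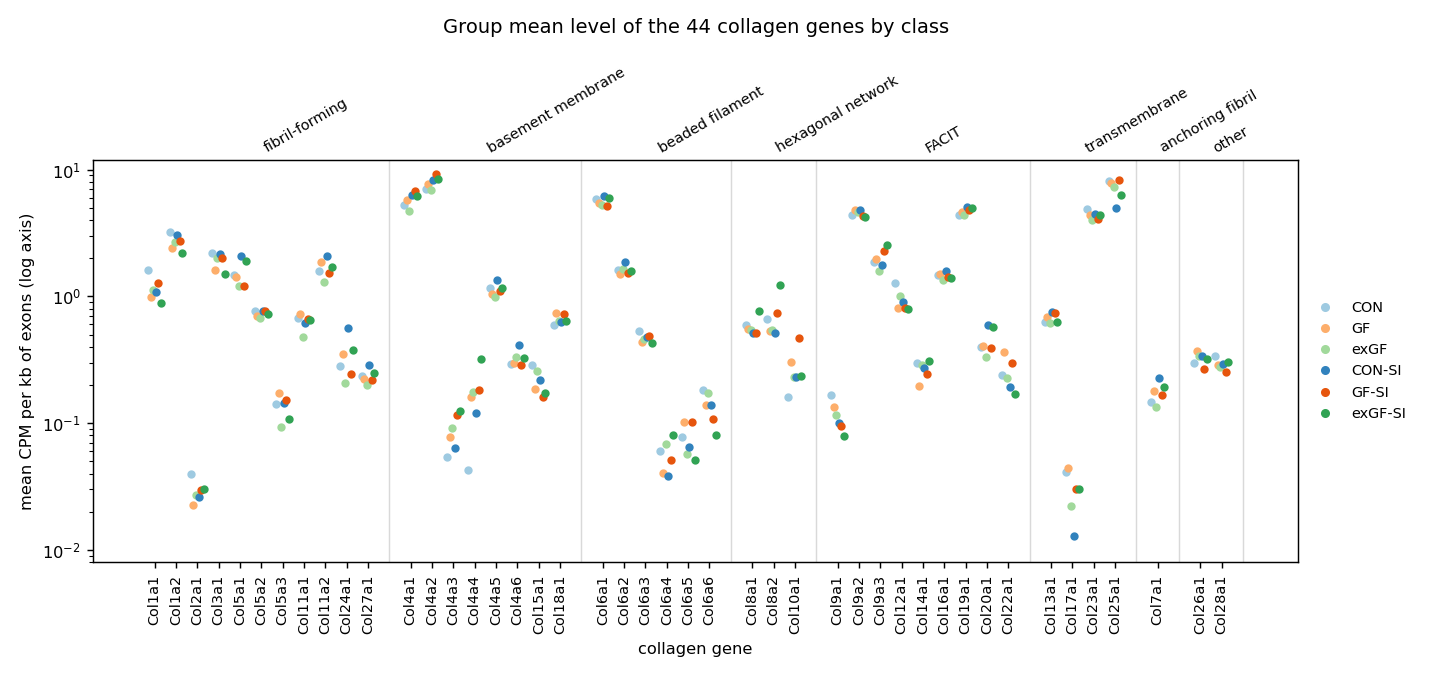
Mean level of each of the 44 collagen genes in the 6 groups, in CPM per kb of exons on a log axis, with genes ordered by class and 1 point per group. Col4a1, Col4a2, Col6a1 and Col25a1 are among the 5 highest genes in each group, and for most genes the 6 points lie close together compared with the range between genes.

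The first comparison asks what microbial status does to the naïve amygdala. No collagen gene passed an adjusted p of 0.1 (edgeR quasi-likelihood test, Benjamini-Hochberg over all genes tested) in GF over CON, exGF over CON or exGF over GF. The numbers tested were 39, 37 and 40, of which 4, 4 and 6 had an unadjusted p under 0.05. Of all genes tested, 0.142%, 0.104% and 0% passed in these comparisons. DESeq2 called 3, 0 and 0 collagen genes. Over all genes it called 156 of 16873, 60 of 24708 and 72 of 12342. The median log2 fold change of the collagens was -0.07, -0.20 and -0.09, beside medians of 0.00, 0.00 and -0.01 for all genes tested.

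For the 3 genes that DESeq2 called in GF over CON, the CON and GF pools did not overlap. The genes were picked by a test on these same values, so the separation adds no support. How many of all genes separate in this way was not counted. Col1a1, a chain of type I collagen, the main fibril of skin, bone and meninges, was at 11.3, 9.45, 10.5 and 11.4 CPM in CON, at 6.84, 7.12, 4.70 and 7.07 CPM in GF and at 7.37, 9.03, 5.78 and 7.48 CPM in exGF. All 4 CON pools were above all GF and exGF pools. The log2 fold change was -0.72 ± 0.15 (SE) in GF, with an adjusted p of 0.185 by edgeR and 0.0213 by DESeq2. It was -0.54 ± 0.15 in exGF, with an adjusted p of 0.522 by edgeR.

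Col12a1, a FACIT that sits on type I fibrils, was at 17.5, 17.4, 19.2 and 23.3 CPM in CON, at 13.1, 11.04, 11.7 and 13.8 CPM in GF and at 17.9, 14.6, 13.4 and 15.6 CPM in exGF. The CON pools were again above the GF pools, while CON and exGF overlapped. The log2 fold change of GF over CON was -0.64 ± 0.13, with an adjusted p of 0.140 by edgeR and 0.00741 by DESeq2. Col4a4, a chain of the minor type IV collagen known from kidney and inner ear, moved the other way. It was at 0, 0.457, 0.720 and 0.638 CPM in CON, at 2.22, 1.16, 1.41 and 2.04 CPM in GF and at 3.30, 1.16, 1.69 and 1.36 CPM in exGF. The log2 fold change of GF over CON was 1.73 ± 0.42 (adjusted p = 0.254 by edgeR, 0.0659 by DESeq2). The values of Col4a4 are close to the filter on low counts, and CON-P1, the library without a Col4a4 count, is one of those rich in Gm42418.

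Without the filter on low counts edgeR called the same 3 genes in GF over CON, and Col4a4 in exGF over CON. Over all genes those fits called 205 of 25937 and 84 of 25490, more than with the filter (21 of 14811 and 15 of 14463). The summed level of the meningeal markers was 936 to 1315 CPM in CON, 619 to 1084 CPM in GF and 749 to 1230 CPM in exGF. Of 10 tested in GF over CON, 0 were called by edgeR and none was at 0, and their median log2 fold change was -0.31, in the direction of Col1a1 and Col12a1. In exGF over CON the median was -0.04. Their part in the values of Col1a1 and Col12a1 was not tested. In bulk tissue, fewer cells of a type and less RNA per cell cannot be told apart.

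The second question is how the collagens responded to social interaction. With the 3 responses averaged in 1 fit over the 6 groups, 42 collagen genes were tested, of which 4 rose and 4 fell. That is 19.0% of the collagens tested, while 26.7% of all genes passed (14.4% higher and 12.2% lower), so the collagens responded no more often than other genes. The median log2 fold change was 0.06 over the collagens and -0.01 over all genes. Of the 8 basement membrane genes, 2 rose and 1 fell. Of the 9 FACIT genes, 2 rose and 2 fell, and of the 6 type VI genes 1 fell. None of the 10 fibril-forming genes tested passed, at an unadjusted p under 0.05 or after adjustment, and their log2 fold changes ran from -0.18 to 0.46.

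Col4a1 was at 30.4, 35.5, 44.3 and 45.5 CPM in the CON pools, at 42.8, 36.3, 46.1 and 45.7 CPM in GF and at 36.1, 34.5, 32.3 and 37.7 CPM in exGF. After SI its lowest, median and highest values were 37.2, 46.0 and 67.4 CPM for CON-SI, 42.4, 50.1 and 69.0 CPM for GF-SI, and 35.4, 45.5 and 54.1 CPM for exGF-SI. Each SI group had a higher median than any of its naïve pools, and each overlapped with them. The averaged log2 fold change was 0.30 ± 0.07 (SE), with an adjusted p of 0.00317 by edgeR.

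Col4a2 was at 37.3, 42.4, 50.6 and 55.2 CPM in CON, at 52.1, 44.96, 54.4 and 51.1 CPM in GF and at 44.1, 48.0, 47.8 and 44.1 CPM in exGF. The lowest, median and highest values were 47.0, 54.5 and 65.4 CPM for CON-SI, 49.99, 59.6 and 80.1 CPM for GF-SI, and 45.5, 53.9 and 71.9 CPM for exGF-SI. The averaged log2 fold change was 0.26 ± 0.07 (adjusted p = 0.00589, edgeR). Both genes kept their call in all 40 fits that left out 1 library and in all other alternatives run.

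**Figure D2:**
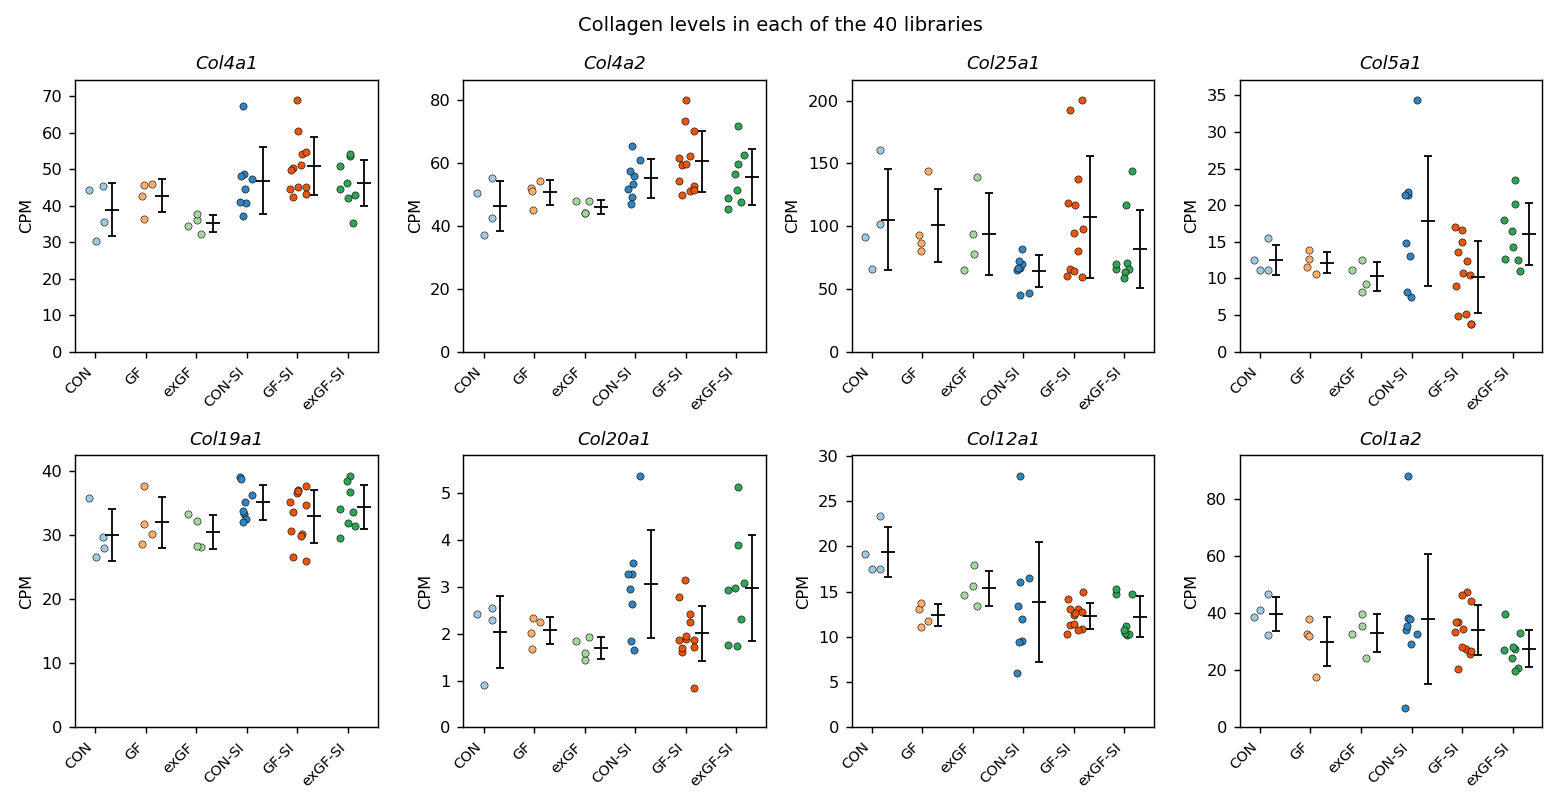
CPM of 8 collagen genes in each of the 40 libraries, with 1 point per library and bars for the mean ± SD of each group (n = 4 for naïve groups, 8 for CON-SI and exGF-SI, 12 for GF-SI). Col4a1 and Col4a2 shift upwards after SI in all 3 colonisation states, Col25a1 is low in CON-SI, and Col1a2 shows 1 high and 1 low library in CON-SI.

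Within single colonisation states, 1 of the 6 values for the type IV pair passed. For Col4a1 the log2 fold change was 0.26 ± 0.15 in CON-SI (adjusted p = 0.404, edgeR), 0.25 ± 0.11 in GF-SI (0.187) and 0.40 ± 0.11 for exGF-SI (0.0595), the value that passed. Col4a2 was at 0.24 ± 0.11 (0.290), 0.25 ± 0.11 (0.183) and 0.27 ± 0.11 (0.182). The responses of the 3 states differed by -0.01 to 0.14 for Col4a1 and by 0.01 to 0.03 for Col4a2, each with a standard error of 0.16 to 0.18, and no difference passed. Of 10 endothelial markers tested, 3 were lower and 0 higher in the averaged response, in which 26.7% of all genes passed. Within states, Kdr and Cldn5 were lower in CON-SI, Cldn5 was lower in exGF-SI and Flt1 was higher in GF-SI. Their summed level was 166 to 221 CPM in CON and 151 to 206 CPM for CON-SI. In GF it was 140 to 191 CPM and for GF-SI 170 to 196 CPM. In exGF it was 155 to 199 CPM and for exGF-SI 148 to 168 CPM. None of the markers was at 0. Their part in the result was not tested.

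The other chains of basement membranes behaved differently. Col15a1, which links the basement membrane to the fibrils around it, was at 2.34, 1.22, 1.80 and 1.99 CPM in CON, at 1.63, 0.654, 1.13 and 1.32 CPM in GF and at 2.09, 2.31, 1.31 and 0.8498 CPM in exGF. Medians after SI were 1.31, 1.04 and 1.21 CPM for CON-SI, GF-SI and exGF-SI, with overlap in each state. It fell by 0.38 ± 0.16 on the log2 scale (adjusted p = 0.0972, edgeR), a call that was lost in 24 of the 40 fits that left out 1 library and in 5 of 7 other alternatives. Without the libraries rich in Gm42418 its log2 fold change was -0.15 (adjusted p = 0.657). Col18a1, the source of endostatin, was at 0.02 ± 0.14. For Col4a5 and Col4a6, the X-linked type IV chains, the averaged log2 fold changes were 0.18 ± 0.15 and 0.13 ± 0.18. Col4a3 and Col4a4 were at 0.40 ± 0.31 and 0.80 ± 0.41. None of these passed.

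Among the FACIT genes, Col19a1, made by interneurons and needed for some inhibitory synapses, was at 26.6, 28.0, 35.8 and 29.7 CPM in CON, at 28.5, 31.7, 30.1 and 37.6 CPM in GF and at 32.1, 33.3, 28.1 and 28.2 CPM in exGF. The lowest, median and highest values were 32.1, 34.5 and 39.0 CPM for CON-SI, 26.0, 34.1 and 37.6 CPM for GF-SI, and 29.6, 33.9 and 39.3 CPM for exGF-SI. It varied least of the members above 1 CPM, by 1.51-fold between the lowest and the highest of all 40 libraries. It rose by 0.15 ± 0.06 on the log2 scale (adjusted p = 0.0585, edgeR), a call lost without any 1 of CON-P1, CON-P2, GF-P1, exGF-P3 and exGF-P4. Its response was 0.22 ± 0.09 for CON-SI, 0.03 ± 0.10 for GF-SI and 0.18 ± 0.09 for exGF-SI, none of which passed alone.

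Col20a1 was at 0.900, 2.29, 2.43 and 2.55 CPM in CON, at 2.02, 2.32, 2.25 and 1.68 CPM in GF and at 1.43, 1.85, 1.93 and 1.59 CPM in exGF. Medians were 3.11 CPM for CON-SI, 1.88 CPM for GF-SI and 2.95 CPM for exGF-SI, so that GF-SI alone of the SI groups had a median below that of its pools. It rose on average by 0.42 ± 0.16 (adjusted p = 0.0627, edgeR), a call lost without any 1 of CON-P1, GF-P4 and exGF-P4 and without the libraries rich in Gm42418 (adjusted p = 0.183). Col12a1, described above for the naïve groups, had medians of 12.7, 12.5 and 10.97 CPM for CON-SI, GF-SI and exGF-SI, so that the median was below every pool of its own state in CON-SI and exGF-SI, while that of GF-SI lay among the GF pools. It fell by 0.28 ± 0.12 (adjusted p = 0.0854), a call that was lost in 14 of the 40 fits without 1 library, without the libraries rich in Gm42418, without the choroid-rich ones and without the filter on low counts. Col9a1, a chain of the FACIT of cartilage and the eye, had at most 20 counts in any library. Its group means fell from 0.838, 0.680 and 0.589 CPM in CON, GF and exGF to 0.511, 0.480 and 0.398 CPM after SI (log2 fold change -0.59 ± 0.20, adjusted p = 0.0309). That call was kept in all 40 fits without 1 library and in all other alternatives run, as for Col4a1 and Col4a2.

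Col6a6, a type VI chain, was at 1.44, 1.37, 1.89 and 1.99 CPM in CON, at 1.69, 0.944, 0.845 and 1.62 CPM in GF and at 1.54, 1.04, 1.93 and 1.81 CPM in exGF. Medians after SI were 0.973, 0.985 and 0.839 CPM, and exGF-S6 had no count. It fell by 0.64 ± 0.25 on the log2 scale (adjusted p = 0.0657, edgeR), a call lost without any 1 of CON-P4, GF-P1, GF-P4, exGF-P3 and exGF-P4 and without the filter on low counts. The abundant type VI chains Col6a1 and Col6a2 were at 0.06 ± 0.15 and 0.06 ± 0.11.

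**Figure D3:**
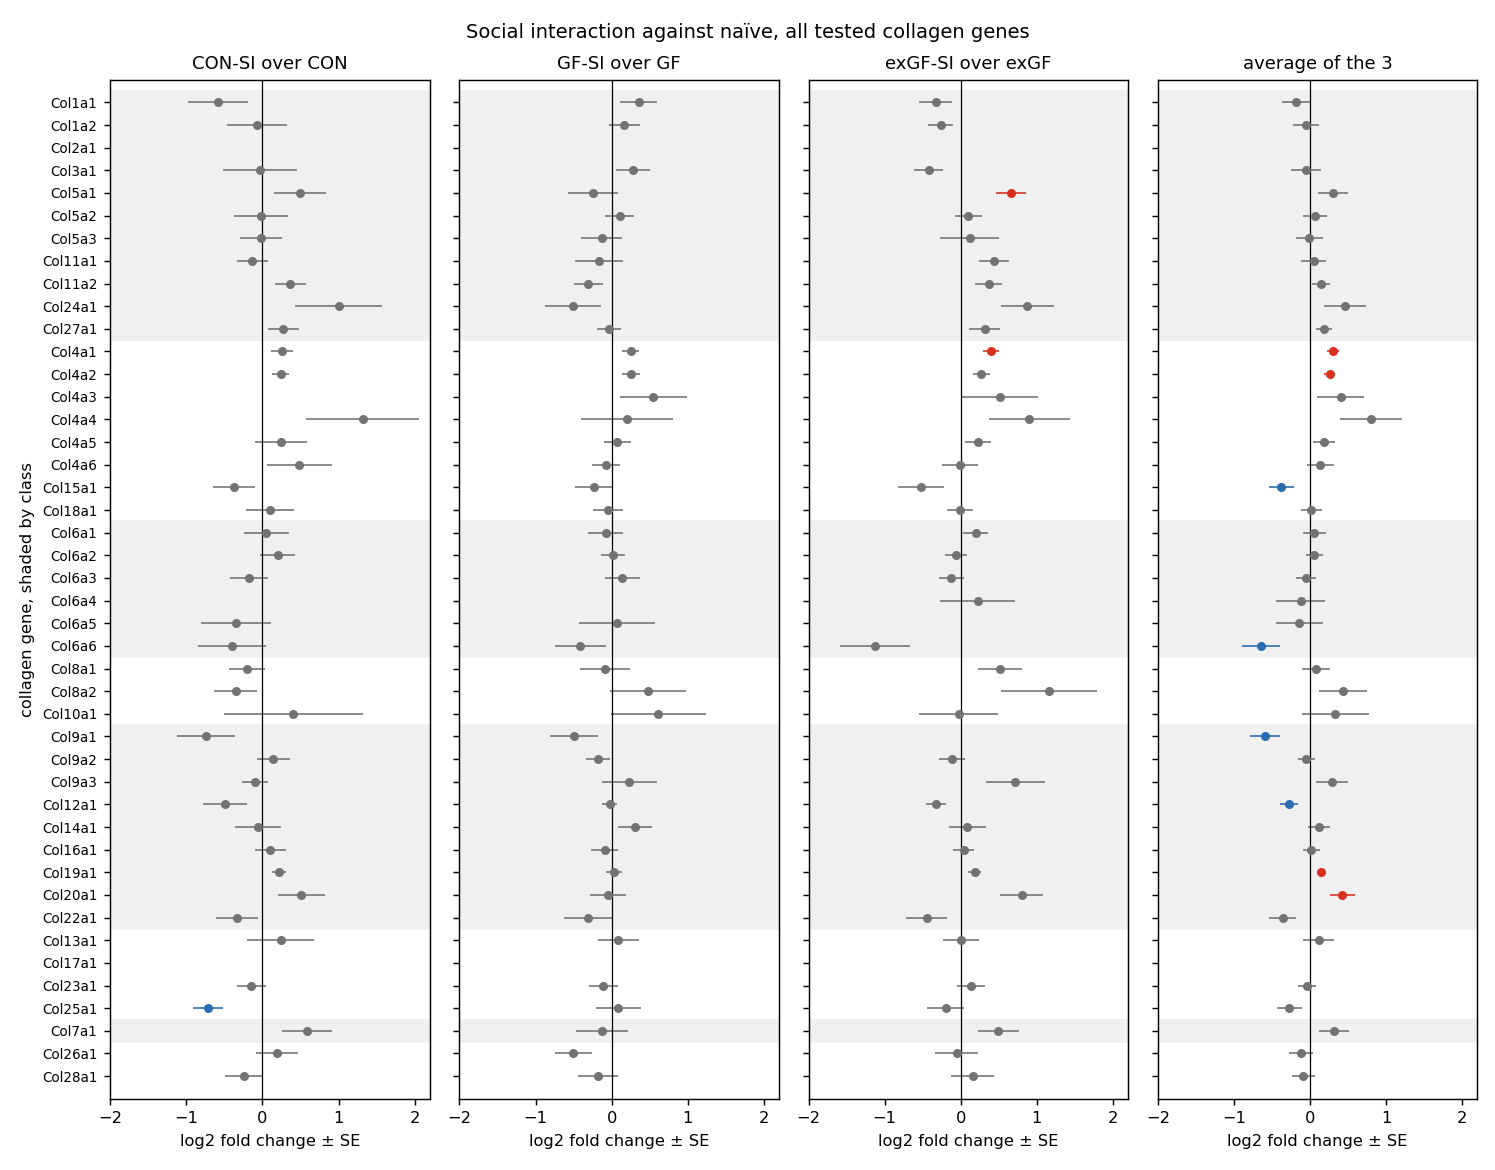
Log2 fold change ± SE of each tested collagen gene after SI over naïve, for the 3 colonisation states and their average, ordered and shaded by class. Red points rose and blue points fell at an adjusted p of up to 0.1, and grey points did not pass; Col4a1 and Col4a2 are above 0 in all 4 panels.

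Within single colonisation states few collagens passed. In CON-SI 1 of 40 tested passed, Col25a1, which fell. Of all genes tested, 3.72% passed there. In GF-SI, where 13.7% of all genes passed, none of 41 collagens did by edgeR or DESeq2, and 2 (Col4a1 and Col4a2) had an unadjusted p under 0.05. In exGF-SI 2 of 40 passed, Col4a1 and Col5a1, both higher, beside 7.61% of all genes and with 9 at an unadjusted p under 0.05. The median log2 fold change of the collagens was 0.02 for CON-SI, -0.04 for GF-SI and 0.12 for exGF-SI. Over all genes it was -0.01 for CON-SI and GF-SI.

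Col25a1, a transmembrane collagen of neurons also known as CLAC-P, whose shed part was found in amyloid plaques, was the most abundant member in CPM. It was at 66.1, 102, 91.1 and 161 CPM in CON, at 92.8, 86.8, 144 and 80.1 CPM in GF and at 77.5, 64.9, 139 and 93.8 CPM in exGF. The lowest, median and highest values were 44.98, 66.7 and 81.9 CPM for CON-SI, 59.4, 96.0 and 201 CPM for GF-SI, and 58.5, 68.1 and 144 CPM for exGF-SI. CON-SI thus lacked the libraries above 100 CPM that the other 5 groups held, and it overlapped with CON through CON-P1. The log2 fold change of CON-SI over CON was -0.72 ± 0.19 (adjusted p = 0.0848, edgeR). In GF-SI over GF it was 0.09 ± 0.30 and in exGF-SI over exGF -0.20 ± 0.24. The responses differed by 0.81 ± 0.40 between GF and CON, with an adjusted p of 0.318.

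The call on Col25a1 rested on several libraries. It was lost in 9 of the 12 fits that left out 1 library (each of CON-P2, CON-P3, CON-P4, CON-S3, CON-S5, CON-S6, CON-S10, CON-S11 and CON-S12), with log2 fold changes from -0.88 to -0.43 over the 12 fits. The call was also lost in the fit over the 6 groups (-0.72), without CON-S3 and CON-S12 (-0.73) and without the libraries rich in Gm42418 (-1.03, adjusted p = 0.101), where the fold change was as large or larger. Without the libraries rich in Gm42418, only 26 of 15887 genes passed in CON-SI over CON. The summed level of the amygdala markers was 543 to 640 CPM in CON and 390 to 615 CPM for CON-SI, 0 of 11 tested were called in either direction in CON-SI over CON, with a median log2 fold change of -0.25, and none was at 0. Their part in the result was not tested.

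Col5a1, a chain of type V collagen, which starts and limits fibrils, was at 12.5, 11.1, 9.24 and 8.22 CPM in exGF. In exGF-SI the lowest, median and highest values were 11.1, 15.4 and 23.4 CPM, so that 1 value at the bottom of exGF-SI lay among the pools. It rose by 0.66 ± 0.19 on the log2 scale (adjusted p = 0.0753, edgeR). The call was lost without any 1 of exGF-P2, exGF-P3, exGF-P4, exGF-S4, exGF-S6 and exGF-S10, and that on Col4a1 without any 1 of exGF-P2, exGF-P3 and exGF-P4. Without the libraries rich in Gm42418, which leaves 2 exGF pools, neither passed, with log2 fold changes of 0.91 for Col5a1 and 0.42 for Col4a1. Over all genes that fit called 155 of 15854. Without the choroid-rich libraries Col5a1 passed, Col4a1 was at an adjusted p of 0.107, and Col24a1, Col20a1 and Col11a2 passed as well, all 3 higher. The share of all genes that passed without the choroid-rich libraries is not given here.

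Col24a1, a fibril-forming collagen of developing bone and cortex, followed Col5a1. It was at 1.98, 1.16, 1.77 and 1.36 CPM in exGF and at 0.910, 2.69 and 4.71 CPM (lowest, median and highest) in exGF-SI. The response was 1.00 ± 0.56 for CON-SI, -0.51 ± 0.37 for GF-SI and 0.88 ± 0.35 for exGF-SI, with overlap in each and no call. The difference between the responses of GF and CON was -1.50 ± 0.65, with an adjusted p of 0.252. In the 3 comparisons of responses (GF with CON, exGF with CON, exGF with GF) 0 of 42 collagens passed by edgeR or DESeq2, with 3, 0 and 3 at an unadjusted p under 0.05. Of all genes, 0.0931%, 0% and 0% passed there.

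The SI groups were also compared with each other. No collagen passed by edgeR in GF-SI over CON-SI (40 tested, 10 at an unadjusted p under 0.05), exGF-SI over CON-SI (39 and 4) or exGF-SI over GF-SI (40 and 7), while 1.1%, 1.31% and 0.0995% of all genes passed. DESeq2 called 3, 0 and 1. Over all genes it called 521 of 16079, 564 of 16419 and 300 of 13789. In GF-SI over CON-SI the smallest adjusted p were those of Col27a1 (-0.40 ± 0.11, adjusted p = 0.119), Col25a1 (0.73 ± 0.22, 0.138) and Col24a1 (-1.20 ± 0.37, 0.153). These are the 3 that DESeq2 called, and the fit over the 6 groups called Col5a1, Col24a1 and Col25a1, beside 561 of 16111 over all genes. Leaving out CON-S7 alone brought 5 collagens past the threshold in this comparison. How many of all genes passed in that fit is not given here. These results share the CON-SI libraries with the response of CON-SI given above.

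Genes that make and secrete collagens were tested as a list. Prolyl and lysyl hydroxylases modify the chains in the endoplasmic reticulum, Serpinh1 (HSP47) is the chaperone of the folded helix, and Mia3 (TANGO1) loads procollagen into vesicles. Of the 22 genes of this list, 6 rose and 1 fell in the averaged response, in which 26.7% of all genes passed, with a median log2 fold change of 0.10 beside -0.01 for all genes. P4ha1, the catalytic subunit of prolyl 4-hydroxylase, was at 50.8, 52.6, 60.0 and 55.6 CPM in CON, at 45.4, 43.9, 45.3 and 49.3 CPM in GF and at 75.1, 70.4, 59.3 and 55.4 CPM in exGF. After SI it was at 80.3 to 120 CPM for CON-SI, 71.8 to 114 CPM for GF-SI and 78.4 to 124 CPM for exGF-SI. Naïve and SI libraries did not overlap in any of the 3 states, with a narrow gap in exGF (75.1 and 78.4 CPM). P4ha1 was named for its small p on these same values, so the separation adds no support. How many of all genes separate naïve from SI libraries was not counted.

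P4ha1 rose by 0.78 ± 0.10 in CON-SI (adjusted p = 0.00233, edgeR), 0.98 ± 0.11 in GF-SI (3.59e-05) and, for exGF-SI, 0.68 ± 0.13 (0.018). In the averaged response P4ha2, a second catalytic subunit, rose by 0.59 ± 0.11 (adjusted p = 0.000113), Serpinh1 by 0.58 ± 0.12 (0.000715) and Mia3 by 0.20 ± 0.05 (0.00299). P4ha1 is also known as a gene induced by low oxygen and Serpinh1 as a heat shock gene. In GF-SI 6 of 22 rose and 0 fell, in CON-SI 1 of 21 rose and in exGF-SI 2 of 21 rose, with 0 falling in both. Of all genes, 13.7% passed in GF-SI, 3.72% in CON-SI and 7.61% in exGF-SI. The differences between the responses of P4ha1 were -0.30 to 0.20, and none passed.

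Processing, receptor, protease and matrix lists were read in the averaged response, beside the 26.7% of all genes that passed there. Of 11 genes tested for cleavage and crosslinking of procollagen, Adamts3, a procollagen N-proteinase, fell by 0.26 ± 0.06 (adjusted p = 0.00207, edgeR). Of 9 receptors tested, the kinase Ddr1 fell by 0.19 ± 0.06 and the integrin chain Itgb1 rose by 0.13 ± 0.06 (adjusted p = 0.0167 and 0.0952). Of 9 collagenases and inhibitors tested, the proteases Mmp14 and Mmp9 fell, by 0.40 ± 0.11 and 0.41 ± 0.14 (0.00753 and 0.0359). Of 16 proteoglycans and glycoproteins of fibrils, the fibrillin Fbn1 fell by 0.37 ± 0.12 (0.0269) and Aspn rose by 0.34 ± 0.13 (0.0487). Of 16 laminins and other basement membrane genes, the laminin chain Lama4 fell by 0.24 ± 0.07 (0.0139).

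The laminin chains that share the vascular basement membrane with type IV collagen had calls in GF-SI over GF, where 2 of the 16 genes of that list rose and 1 fell, beside 13.7% of all genes. Lamc1 rose by 0.37 ± 0.10 (adjusted p = 0.0274, edgeR), Lamb1 rose by 0.51 ± 0.16 (0.0539) and Lama5 fell by 0.68 ± 0.16 (0.0178). In CON-SI and exGF-SI, where 3.72% and 7.61% of all genes passed, 0 of the 16 did by edgeR. The difference between the responses of GF and CON was 0.44 ± 0.16 for Lamc1 and 0.80 ± 0.30 for Lamb1, with adjusted p of 0.179 and 0.189. Timp4, an inhibitor of matrix proteases, was lower in exGF-SI than in exGF (-0.57 ± 0.17, 0.0753), CON-SI (-0.67 ± 0.16, 0.071) and GF-SI (-0.71 ± 0.15, 0.0741). These comparisons share the exGF-SI libraries, and 7.61%, 1.31% and 0.0995% of all genes passed in them. Of the 9 genes of its list tested in exGF-SI over exGF, Timp4 and Mmp9 fell and Mmp16 rose. Timp4 was the only call of that list in the other 2 comparisons. In exGF-SI over exGF, Fbln5 and Fmod of the 16 fibril genes and Mrc2 of 9 receptors also fell, with 0 rising.

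The third pattern is how collagens varied between libraries of a group. For 10 pairs of genes, chosen because they encode chains of one collagen or are neighbours, the deviations of log2 CPM from the group means were correlated over the 40 libraries, with permutation within groups and adjustment over the 10 pairs. These values share library depth and tissue makeup. Col4a1 and Col4a2, which share the promoter shown above, had r = 0.70 and rho = 0.67 (permutation, adjusted p = 1.67e-05 and 0.00014), and r was 0.66 without the 2 libraries farthest from the median of Col4a1. The level of Col4a1 per kb was 0.74 of that of Col4a2.

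Col4a3 and Col4a4, also head to head, on chromosome 1 with 71 bases between them, had r = 0.78 and rho = 0.79 (permutation, adjusted p = 1.67e-05 and 0.0001). Col6a1 and Col6a2 had r = 0.73 and rho = 0.66 (1.67e-05 and 0.00014). Col1a1 and Col1a2 had r = 0.84 and rho = 0.65, Col4a5 and Col4a6 r = 0.84 and rho = 0.62, and the neighbours Col3a1 and Col5a2 r = 0.81 and rho = 0.62 (adjusted p of r = 1.67e-05 each). In these last 3 pairs r fell to 0.57, 0.59 and 0.51 without CON-S3 and CON-S12. Col11a1 and Col11a2 had r = 0.53 and rho = 0.57 (0.00319 and 0.000829).

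The chains of type V and of type IX had low correlations. Col5a1 and Col5a2, which join in type V collagen, had r = 0.11 and rho = 0.24 (permutation, adjusted p = 0.621 and 0.205). Col9a2 and Col9a3 of type IX had r = 0.11 and rho = 0.17 (0.575 and 0.313). This pair was taken over all 40 libraries. They include the 5 choroid-rich ones, in which Col9a3 was at 9.91 to 22.6 CPM, against 4.29 to 10.3 CPM in the other 35. Their part in this r was not tested. For Col8a1 and Col8a2 the 5 choroid-rich libraries formed a separate cluster, and among the other 35 r was 0.56 and rho 0.56 (0.0197 and 0.0237).

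Deviations of the 36 collagens above 1 CPM were set against the mean deviation of each of 13 marker lists, 468 relations in all, with permutation within groups and adjustment over the 468. This was added after the data had been seen. For 12 of the 36 genes the largest r was that with the meningeal list, in all cases positive and between 0.54 and 0.95. For how many of all genes the meningeal list gives the largest r was not counted. Col1a2 had r = 0.95 and rho = 0.86 with this list and Col3a1, the fibril of vessels and meninges, r = 0.94 and rho = 0.85 (permutation, adjusted p = 0.000425 and 0.00052 for both genes). Without CON-S3 and CON-S12 r was 0.89 and 0.88. Col4a5 had r = 0.90, Col5a2 r = 0.86 and Col4a6 r = 0.84, with 0.77, 0.69 and 0.63 without those 2 libraries. For Col1a1 and Col12a1 r fell from 0.74 and 0.70 to 0.38 and 0.34.

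The levels show the same. Col1a2 was at 6.87 CPM in CON-S3 and 88.3 CPM in CON-S12, Col3a1 at 2.60 and 61.5 CPM, and Col4a5 at 2.73 and 19.2 CPM. These are the lowest and the highest values of all 40 libraries for each of the 3 genes, and they match the order of the summed meningeal markers. Without both libraries the averaged response still had 8 collagens called, and Col12a1 fell by 0.32 (adjusted p = 0.00369, edgeR). The share of all genes that passed without both libraries is not given here.

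**Figure D4:**
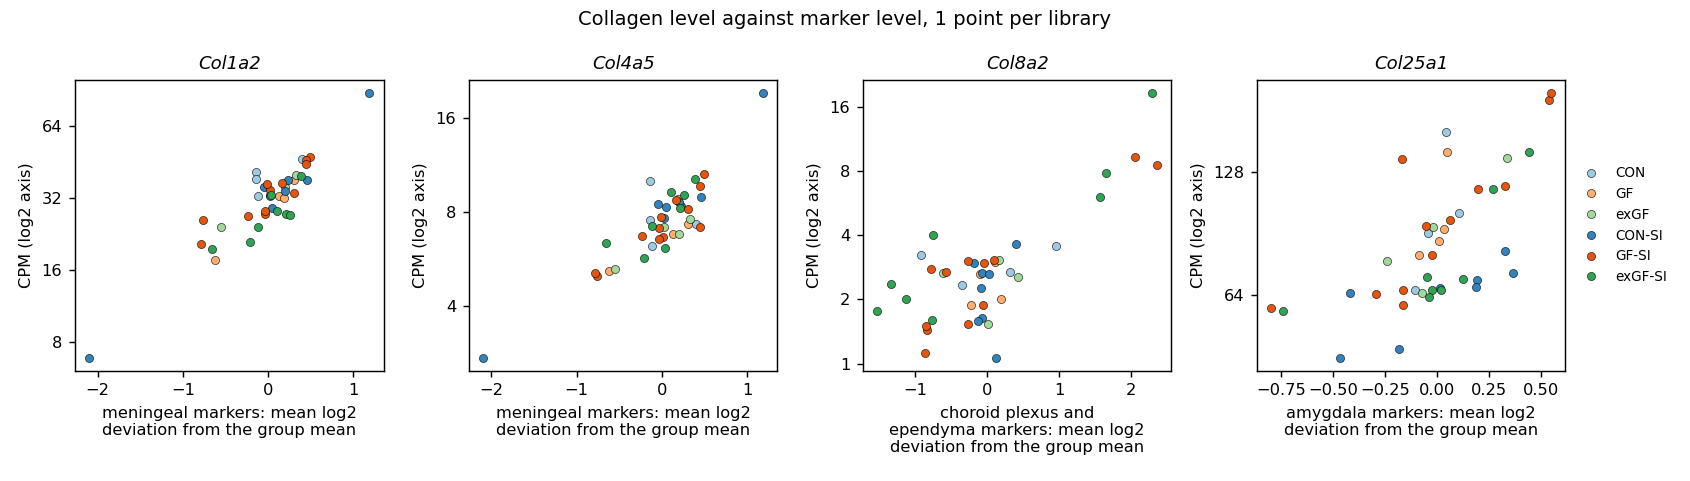
CPM of 4 collagen genes (log2 axis) against the mean log2 deviation of a marker list from its group mean, with 1 point per library, coloured by group. Col1a2 and Col4a5 follow the meningeal list, with CON-S3 lowest and CON-S12 highest; Col8a2 is raised in the 5 choroid-rich libraries, and Col25a1 rises with the amygdala list.

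Col8a1 and Col8a2 were highest in the 5 choroid-rich libraries, and Col9a3 was high there with some overlap. In the 5 choroid-rich libraries Col8a2, a short-chain collagen of Descemet's membrane and vessel walls, was at 6.06 to 18.6 CPM, above all of the other 35, which were at 1.07 to 4.01 CPM. Col8a1 was at 7.398 to 10.7 CPM against 1.98 to 6.34 CPM, again without overlap. Col9a3 was at 9.91 to 22.6 CPM against 4.29 to 10.3 CPM, with overlap through exGF-S7. The 3 genes were chosen after the data had been seen. How many of all genes separate these 5 libraries was not counted. Among the 35 other libraries r with the choroid list was 0.51, 0.57 and 0.60 for Col8a1, Col8a2 and Col9a3, and rho 0.60, 0.53 and 0.55 (permutation, adjusted p of r = 0.23, 0.132 and 0.0581). Of the 5 libraries, 3 are exGF-SI and 2 GF-SI. The log2 fold change of Col8a2 in exGF-SI over CON-SI was 1.26 ± 0.46, with an adjusted p of 0.219.

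Further relations were with the amygdala, excitatory neuron and endothelial lists. Col25a1 had r = 0.75 and rho = 0.79 with the amygdala list (permutation, adjusted p = 0.000425 and 0.00052), and r = 0.76 without GF-S2 and exGF-S8. With the markers of excitatory neurons, which hold cortical genes, it had r = -0.70 and rho = -0.76 (0.000425 and 0.00052). Col23a1, another transmembrane collagen, followed the amygdala list at r = 0.68 and rho = 0.50. Col22a1 went against excitatory neurons at r = -0.76 and rho = -0.74. Col5a1 and Col24a1 went against the amygdala list, at r = -0.56 and -0.51 and rho = -0.66 and -0.54 (adjusted p of r = 0.0192 and 0.0214). Col4a1 was closest to the endothelial list, at r = 0.59 and rho = 0.52 (0.00589 and 0.0226), and r was 0.46 without CON-S12 and GF-P2. Its partner Col4a2 had r = 0.32 and rho = 0.26 with that list (0.156 and 0.359), and its largest r was negative, with excitatory neurons (r = -0.42, rho = -0.46, adjusted p = 0.0809 and 0.0556).

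**Figure D5:**
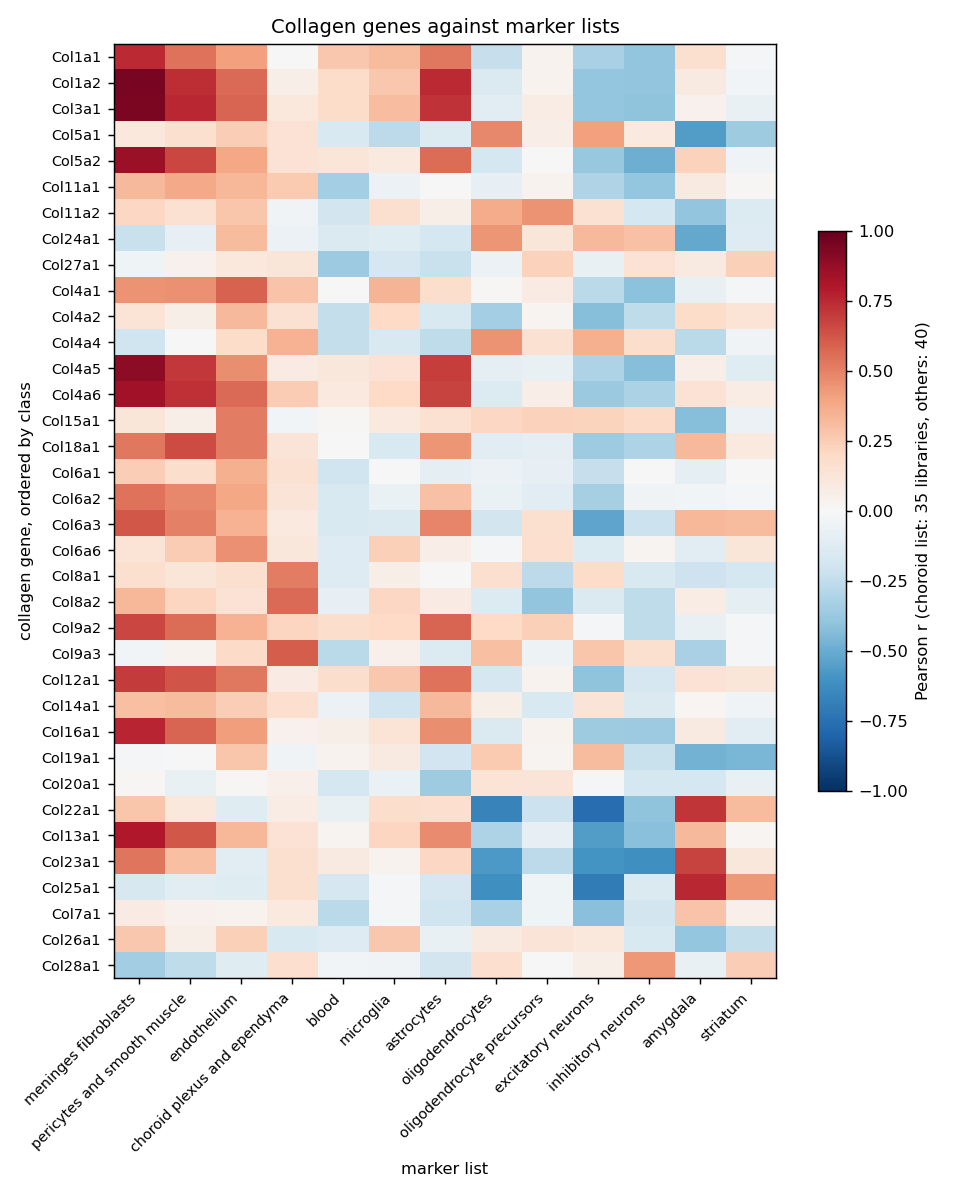
Pearson r between the deviations of 36 collagen genes (rows, by class) and of 13 marker lists (columns), over 40 libraries and for the choroid list over 35. The meningeal column is dark red for Col1a2, Col3a1, Col4a5, Col4a6 and Col5a2, while Col22a1, Col23a1 and Col25a1 are red for the amygdala list and blue for excitatory neurons.

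Exons of 13 collagen genes overlap those of another gene, and the counting took no account of strand. The overlaps of Col4a3 (5.65% of its exon bases, with a processed transcript) and Col9a3 (6.07%, with Tcfl5) were the longest. Reads in those stretches cannot be told apart, and the 22 bases shared by Col4a1 and Col4a2 are 0.295% and 0.332% of their exons.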

How the data were processed

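Amygdala RNA was depleted of rRNA and sequenced. The authors trimmed reads with Trimmomatic 0.32, aligned them to GRCm38.p3 with STAR 2.4.0f1 and used HTSeq 0.6.0 to count them per gene, ignoring strand. The deposited values are raw counts. A second deposited table holds the authors' own fold changes and was not used. Members and lists were chosen with earlier results of these data known.

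Counts were tested with edgeR 4.0.16 (R 4.3.3; TMM scaling, filterByExpr, quasi-likelihood test) at an adjusted p of 0.1, each comparison on its own groups. Differences between responses and their average used 1 fit over the 6 groups. DESeq2 1.42.0, RLE scaling, no filter, a correction for GC content and length, and leaving out libraries were alternatives, of which 2 were chosen after seeing the data. The tests were tested on simulated data. Correlations used log2 CPM (prior count 2) and 100000 permutations, whose smallest p is 1e-05. Those with choroid markers, and the pair Col8a1 and Col8a2, used 35 libraries because 5 stood apart. All members with a mean of at least 1 CPM or a call could be named, and of each list at most 4 called genes per comparison. P-values of the count tests set a difference against the spread between these libraries. The libraries are pools in the naïve groups and single mice after SI. The depth of 7291810 to 19961958 counts limits the genes under 1 CPM.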

Additional observations from a re-analysis of the deposited data

Results flagged for a closer look

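GF-SI, with 12 libraries, was not tested for outlying libraries. Of 180 sets of values (a collagen gene in 1 of the other 5 groups), 16 held 1 library far from the others of its group by Dixon's criterion at 95%, which flags about 5% of such sets by chance. CON-S12, the library highest in meningeal markers, stood apart within CON-SI for 7 genes. It was at 88.3 CPM for Col1a2, 61.5 CPM for Col3a1, 67.4 CPM for Col4a1, 19.2 CPM for Col4a5, 8.14 CPM for Col4a6, 3.59 CPM for Col6a6 and 8.72 CPM for Col18a1. The nearest other libraries were at 38.3, 19.8, 48.6, 8.96, 3.57, 1.29 and 4.73 CPM. CON-S3 was high for Col4a4, at 4.34 CPM with the next at 2.198 CPM. exGF-S9, the library highest in choroid plexus markers, was at 18.6 CPM for Col8a2 with the next at 7.83 CPM. exGF-S5 was at 7.80 CPM for Col6a3 with the next at 5.41 CPM. Among the naïve pools, GF-P3 was low for Col1a1 (4.70 CPM, next 6.84), CON-P4 low for Col8a1 (3.19 CPM, next 5.04) and high for Col13a1 (4.33 CPM, next 2.52), CON-P1 low for Col20a1 (0.900 CPM, next 2.29), GF-P4 low for Col26a1 (2.16 CPM, next 3.26) and GF-P1 high for Col27a1 (4.04 CPM, next 2.64).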

How the results depend on the processing

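Counts of collagens called moved as follows, and no result reversed. In GF over CON 3 were called by DESeq2 and 3 without the filter, and in exGF over CON 1 without the filter. Over all genes the fits without the filter called 205 of 25937 in GF over CON and 84 of 25490 in exGF over CON. In CON-SI 0 were called in the fit over the 6 groups, without the libraries rich in Gm42418 and without CON-S3 and CON-S12. Over all genes in CON-SI, the fit over the 6 groups called 969 of 16111. The fit without the libraries rich in Gm42418 called 26 of 15887, against 566 of 15220 with them. In GF-SI 1 (Col8a1, lower) was called without the 5 choroid-rich libraries. In exGF-SI 1 was called in the fit over the 6 groups, 0 without the libraries rich in Gm42418 and 4 without the choroid-rich libraries, and 3 were called by DESeq2 (Col20a1 added) and 3 with the GC and length correction (Col4a2 added). Over all genes in exGF-SI, DESeq2 called 1642 of 13765 and the fit with that correction 609 of 15264. The fit over the 6 groups called 1401 of 16111, and the fit without the libraries rich in Gm42418 called 155 of 15854. In GF-SI over CON-SI 3 were called in the fit over the 6 groups and 3 by DESeq2, and in exGF-SI over GF-SI 1 by DESeq2. In the averaged response 5 were called without the filter, 6 without the choroid-rich libraries (Col12a1 and Col15a1 lost) and 7 without those rich in Gm42418, where Col12a1, Col15a1 and Col20a1 were lost and Col22a1 (-0.54, adjusted p = 0.0792) and Col25a1 (-0.47, 0.0918) fell. Over all genes, 3592 of 29599 were called without the filter and 3625 of 16635 without the libraries rich in Gm42418. With 1 library left out, counts ran from 0 to 1 in CON-SI, 0 to 1 in GF-SI (1 without GF-S1), 0 to 4 in exGF-SI (0 without exGF-P2, exGF-P3 or exGF-P4, 4 without exGF-S9), 0 to 5 in GF-SI over CON-SI (5 without CON-S7), 0 to 1 in exGF-SI over CON-SI (1 without CON-S3) and 4 to 8 in the averaged response (4 without exGF-P4), and stayed at 0 elsewhere. How many of all genes passed in these fits is not given here. The same holds for the fits without the choroid-rich libraries and without CON-S3 and CON-S12. Without the 2 libraries farthest from the median, r fell to 0.57 for Col1a1 and Col1a2, 0.59 for Col4a5 and Col4a6 and 0.51 for Col3a1 and Col5a2, and without the libraries rich in Gm42418 it was 0.88 for Col4a5 and Col4a6. The cause was not tested. No paired analysis was possible because the groups hold different mice, in pools when naïve and singly after SI. The columns of the count table also carry no number that links them to the replicate numbers of the labels. Genes under 1 CPM, such as Col9a1 and Col17a1, are limited by depth.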
